A study of Cannabis sativa with 12 samples.

Results

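The enzymes described here build the monolignol branch of lignin synthesis in the growing hemp hypocotyl: HCT, CCoAOMT, CCR1, COMT1, CAD4 and CAD9. They were selected by gene name and Arabidopsis locus, with earlier results of these data known, and 10 contigs out of the 3622 analysed matched them. HCT (AT5G48930) was matched by contigs 2469 and 14769, and COMT1 (AT5G54160, deposited under the symbol OMT1) by contigs 6693, 4361 and 8341. CAD4 (AT3G19450) was matched by contigs 1798 and 10133. CCoAOMT (AT4G34050), CCR1 (AT1G15950) and CAD9 (AT4G39330) had 1 contig each, with the numbers 2388, 8326 and 7034. Contig 8326 carried no symbol and was matched by the Arabidopsis locus that the study assigned to it.

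Whole hypocotyls of Cannabis sativa cv. Santhica 27, a fiber variety, were sampled on day 6, 9, 15 and 20 after sowing (H6, H9, H15 and H20). The groups share their genotype and growth conditions and differ in age. Each time point had 3 libraries, each from its own pool of 20 hypocotyls out of a single experimental batch. A hypocotyl holds epidermis, cortex, phloem with bast fibers, cambium and xylem. In such bulk samples, fewer cells of a type and less RNA per cell cannot be told apart.

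Lignin is a phenolic polymer that stiffens secondary cell walls, above all those of xylem vessels and xylem fibers. Its building blocks, the monolignols, arise in the cytosol from p-coumaroyl-CoA, the product of the general phenylpropanoid pathway. HCT opens the branch by coupling the p-coumaroyl group to shikimate, methyltransferases decorate the ring, and CCR and CAD reduce the side chain to the alcohol. The monolignols then move to the wall, where laccases and peroxidases link them. Hemp bast fibers are known for walls rich in cellulose and poor in lignin, whereas the woody core of the stem is strongly lignified.

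Levels are given as RPKM, reads per kilobase of contig scaled to the mapped reads of the library, which allows contigs of different length to be compared within a library. Fold changes are log2 values from the quasi-likelihood test of edgeR on the counts of uniquely mapped reads, fitted to the 12 libraries together. Adjusted p-values (Benjamini-Hochberg over the 3622 contigs) come from that fit. The words higher and lower, used of a contig, mean that its adjusted p was under 0.05. The libraries held 13413477 to 25855401 mapped reads (median 19204841), and the members were each covered by 21 to 46167 reads per library. Together they took up between 0.0947 and 0.134% of the mapped reads in H6, between 0.155 and 0.202% in H9, between 0.411 and 0.434% in H15 and between 0.398 and 0.438% in H20. All 3622 contigs had been selected by the study because they differed among these same libraries, so every call is a call within that selection and not an independent test. Contigs that share a name may be paralogs, alleles or fragments of 1 transcript, and reads of near-identical copies may be split between them, which was not tested.

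At H20, 7 of the 10 contigs were higher than at H6 and 2 were lower, while of all contigs analysed 40.8% were higher and 52.8% lower. The median log2 fold change of the 10 contigs was 2.16, beside -0.58 over all contigs. The same 7 contigs were higher in H9 than in H6, where 37.9% of all contigs were higher, and again in H15 against H9, where 38.3% were. COMT1 contig 4361 and CAD9 were lower in H9 than in H6 (36.8% of all contigs were), and HCT contig 14769 was lower in H15 than in H9 (41.3% were). The 7 higher contigs were the main HCT contig 2469, CCR1, CCoAOMT, COMT1 contigs 6693 and 8341 and both CAD4 contigs. For H20 against H15, COMT1 contig 4361 was higher, as were 17% of all contigs, and COMT1 contig 8341 and CAD9 were lower, as were 24.4% of all contigs. These shares of all contigs move with the scaling. With the sum of the analysed counts as library size, 21% were higher and 19.4% lower in H20 against H15, and 41.1% higher and 35.4% lower in H15 against H9. Under DESeq2, 45.5% were higher and 29.7% lower in H9 against H6.

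The median log2 fold change of the 10 contigs was 0.97 for H9 against H6 (0.03 over all contigs), 0.98 for H15 against H9 (-0.12) and -0.07 for H20 against H15 (-0.07). The highest mean lay in H20 for 4 contigs, in H15 for 3, in H6 for 2 and in H9 for 1. Over all contigs, 20% were highest in H20, 19.8% in H15, 19.6% in H9 and 40.6% in H6. In the joint test of the 4 time points the adjusted p of the members ran between 1.18e-09 (COMT1 contig 6693) and 1.8e-05 (COMT1 contig 4361, edgeR), and 100% of the contigs in the table passed that test.

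**Figure D1:**
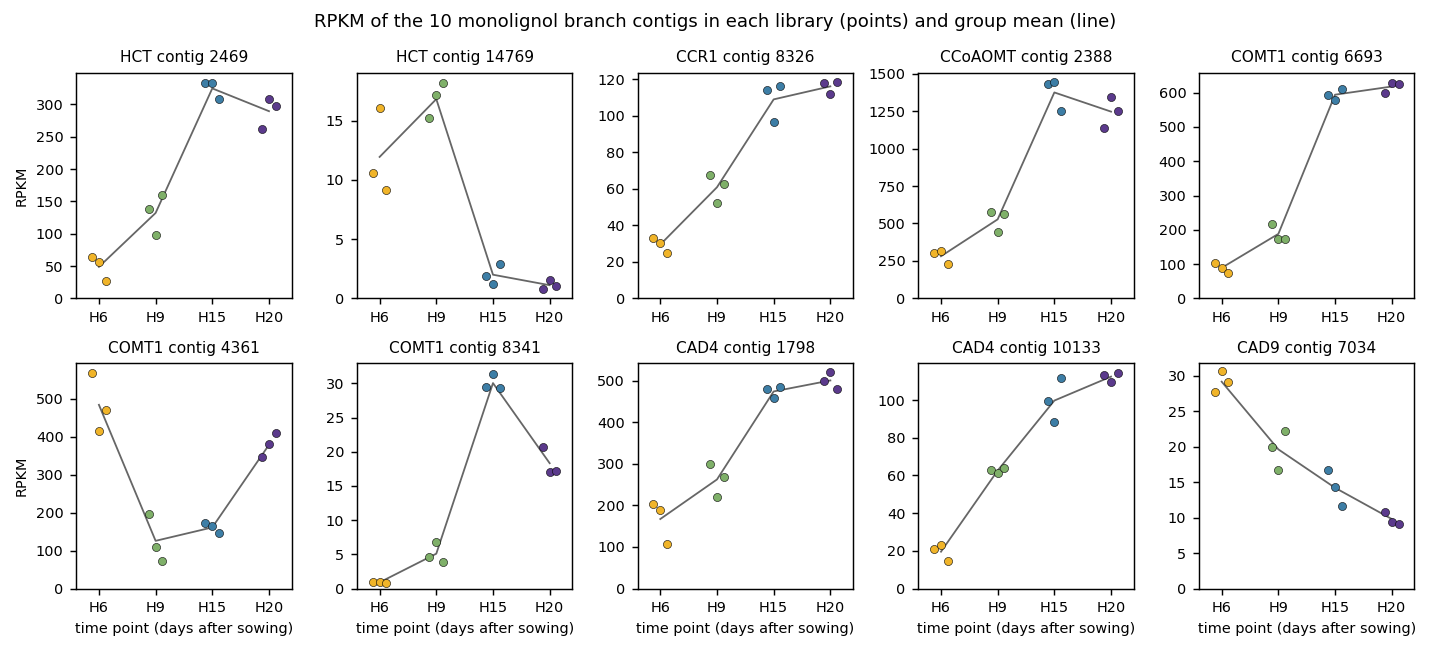
RPKM (vertical axis, starting at 0, with its own scale in each panel) of the 10 contigs at H6, H9, H15 and H20 (horizontal axis). Points are the 3 libraries of a time point and lines join the means. In 7 panels the H15 and H20 points all lie above the H6 and H9 points. The share of all contigs that separate in this way was not counted. HCT contig 14769 and CAD9 have their lowest means in H20, and COMT1 contig 4361 is lowest in H9 and H15.

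HCT, hydroxycinnamoyl-CoA:shikimate hydroxycinnamoyltransferase, commits p-coumaroyl-CoA to the branch and, further on, can release caffeoyl-CoA from the shikimate ester. Its longer contig 2469 (1636 bases) had 64.0, 55.7 and 26.4 RPKM in H6 and 139, 97.7 and 160 RPKM in H9. It had 333, 333 and 309 RPKM in H15 and 261, 309 and 298 RPKM in H20. Every library of H9 was above every library of H6 and below every library of H15, while H20 and H15 overlapped at 309 RPKM. The log2 fold change of contig 2469 for H20 against H6 was 2.67 ± 0.28 (SE, 95% interval 2.07 to 3.27, adjusted p = 8.97e-07, edgeR). Its increments for H9 against H6 and for H15 against H9 were both 1.43 (adjusted p = 0.000338 and 0.00027, edgeR), and H20 against H15 gave -0.19 (adjusted p = 0.578, edgeR).

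The second HCT contig, 14769 (1202 bases), had a low and opposite profile. It had 10.6, 16.1 and 9.16 RPKM in H6 and 15.2, 17.1 and 18.1 RPKM in H9, then 1.88, 1.22 and 2.89 RPKM in H15 and 0.81, 1.51 and 1.01 RPKM in H20. The H15 and H20 libraries all lay under the H6 and H9 libraries. Contig 14769 was lower in H20 than in H6 by a log2 fold change of -3.35 ± 0.33 (SE, adjusted p = 6.14e-07, edgeR), and the drop fell between H9 and H15, with -2.94 ± 0.31 for H15 against H9 (adjusted p = 2.56e-06, edgeR). H20 against H15 (-0.89, adjusted p = 0.0557, edgeR) and H9 against H6 (0.48, adjusted p = 0.128, edgeR) did not pass. These calls depend on single libraries: H20 against H15 passed without the second H15 library (-1.15, adjusted p = 0.0182) or the second H20 library (-1.15, adjusted p = 0.0375), and H9 against H6 without the second H6 library (0.75, adjusted p = 0.0378, edgeR). The smallest count of contig 14769 was 22 reads, so its late levels rest on few reads.

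CCoAOMT, caffeoyl-CoA O-methyltransferase, adds a methyl group to caffeoyl-CoA and gives feruloyl-CoA, the precursor of guaiacyl lignin. Contig 2388 (1238 bases) was the most abundant member in H9, H15 and H20, with 304, 314 and 226 RPKM in H6, 575, 445 and 563 RPKM in H9, 1428, 1442 and 1254 RPKM in H15, and 1141, 1347 and 1253 RPKM in H20. The libraries of H6, H9 and H15 did not overlap, whereas those of H20 and H15 did. By mean RPKM, CCoAOMT contig 2388 ranked at place 182 of the 3622 contigs in H6, place 52 in H9, place 8 in H15 and place 12 in H20. The log2 fold change for H20 against H6 was 2.25 ± 0.15 (SE, adjusted p = 2.51e-08, edgeR). The H15 against H9 value of 1.52 ± 0.15 was above the H9 against H6 value of 0.90 ± 0.15, a difference between the steps that was not tested.

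CCR1, cinnamoyl-CoA reductase, reduces feruloyl-CoA to coniferaldehyde, the first step that belongs to monolignols alone. Contig 8326 (2456 bases) had 33.3, 30.3 and 24.8 RPKM in H6, 67.8, 52.3 and 62.5 RPKM in H9, 114, 96.6 and 116 RPKM in H15, and 118, 112 and 119 RPKM in H20. Both early increments were nearly the same size, with log2 fold changes of 1.03 ± 0.13 for H9 against H6 and 0.98 ± 0.13 for H15 against H9 (SE, adjusted p = 1.54e-05 and 1.75e-05, edgeR). H20 stood at a log2 fold change of 2.08 ± 0.13 against H6 (adjusted p = 1.44e-08, edgeR), and between H20 and H15 it was 0.07, with a 95% interval of -0.21 to 0.35.

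COMT1, caffeic acid/5-hydroxyferulic acid O-methyltransferase, methylates 5-hydroxylated aldehydes and alcohols on the way to syringyl lignin, and in Arabidopsis also acts on flavonols. Its 3 contigs had 3 different profiles. Contig 6693 (1463 bases) followed the branch, with 104, 88.2 and 75.2 RPKM in H6, 216, 174 and 173 RPKM in H9, 595, 577 and 610 RPKM in H15, and 599, 629 and 626 RPKM in H20. In the edgeR fit, contig 6693 was 3.48-fold higher in H15 than in H9. In the same fit H20 was 7.44-fold above H6 (log2 fold change 2.89 ± 0.13 SE, adjusted p = 1.28e-09, edgeR), while the ratio of the mean RPKM was 6.94. The log2 fold change for H20 against H15 was 0.03 (95% interval -0.24 to 0.30).

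COMT1 contig 8341 (1714 bases), the longest of the 3, was lowest of the 10 contigs in H6 and had the largest fold change among them. It had 0.91, 0.99 and 0.81 RPKM in H6, 4.65, 6.79 and 3.85 RPKM in H9, 29.5, 31.4 and 29.3 RPKM in H15, and 20.7, 17.0 and 17.3 RPKM in H20. Its time points did not overlap, and H15 was the highest. The log2 fold change was 4.44 ± 0.22 for H20 against H6 (21.7-fold, adjusted p = 2.05e-09, edgeR), and its smallest count was 21 reads. Contig 8341 alone among the 7 rising contigs was lower in H20 than in H15, by a log2 fold change of -0.74 ± 0.17 (SE, adjusted p = 0.00428, edgeR).

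COMT1 contig 4361 (522 bases), the shortest member, was lowest at the middle stages. It had 568, 415 and 469 RPKM in H6, 196, 110 and 71.8 RPKM in H9, 173, 164 and 146 RPKM in H15, and 346, 380 and 410 RPKM in H20. The H9 and H15 libraries overlapped, and all of them lay under every H6 and H20 library. In H6 it was the most abundant of the 10 contigs. It was lower in H9 than in H6 (log2 fold change -1.97 ± 0.27 SE, adjusted p = 2.88e-05, edgeR) and higher in H20 than in H15 (1.21 ± 0.26, adjusted p = 0.00277, edgeR). The H20 libraries all lay under the H6 libraries, yet the log2 fold change of -0.25 (95% interval -0.81 to 0.31) did not pass (adjusted p = 0.36, edgeR). H15 against H9 gave 0.50 (adjusted p = 0.0916, edgeR), and without the first H9 library, its highest H9 value, 0.97 (adjusted p = 0.000522, edgeR). This profile was then looked for in the other contigs. Means more than 2 times higher in both H6 and H20 than in both H9 and H15 were found for 77 of the 3622 contigs (2.13%), and contig 4361 was the only member among them.

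CAD4, cinnamyl alcohol dehydrogenase, reduces coniferaldehyde and sinapaldehyde to the alcohols and is, with CAD5, the main CAD of lignin synthesis in the Arabidopsis stem. Contig 1798 (1240 bases) had 204, 190 and 108 RPKM in H6, 299, 219 and 269 RPKM in H9, 479, 459 and 484 RPKM in H15, and 500, 521 and 480 RPKM in H20. The first 3 time points did not overlap and H20 overlapped with H15. Its log2 fold change for H20 against H6, 1.68 ± 0.20 (SE, adjusted p = 2.79e-06, edgeR), was the smallest among the 7 rising contigs.

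The less abundant CAD4 contig 10133 (1117 bases) is the one that the study lists for its CAD4 RT-qPCR primers. These primers were not aligned to either CAD4 contig, so whether they also read the other one was not tested. In lower case and in the 5′ to 3′ direction, with no part marked, they are:
CAD4 forward primer: ccagttatacccagaccataccc
CAD4 reverse primer: agcccatcctgtaatggttc

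The contig assigned to these primers had 21.0, 22.9 and 14.7 RPKM in H6 and 62.7, 61.3 and 63.8 RPKM in H9. It had 99.6, 88.1 and 111 RPKM in H15, and 113, 110 and 114 RPKM in H20. CAD4 contig 10133 had a log2 fold change of 1.67 ± 0.14 for H9 against H6 and 0.81 ± 0.14 for H15 against H9 (SE, adjusted p = 8.22e-07 and 0.000152, edgeR), and the difference between these steps was not tested. At H20 it was 2.63 ± 0.15 above H6 on the log2 scale (adjusted p = 5.19e-09, edgeR), and H20 against H15 gave 0.15 (95% interval -0.15 to 0.45).

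CAD9 belongs to the same dehydrogenase family, but its part in lignin synthesis is less established. Its libraries lay lower at each successive time point. Contig 7034 (1622 bases) had 27.7, 30.6 and 29.1 RPKM in H6, 19.9, 16.7 and 22.2 RPKM in H9, 16.7, 14.2 and 11.7 RPKM in H15, and 10.9, 9.39 and 9.15 RPKM in H20. No library of a later time point reached the lowest library of the preceding one. The log2 fold change of CAD9 contig 7034 for H20 against H6 was -1.47 ± 0.16 (SE, adjusted p = 1.47e-06, edgeR). H9 against H6 gave -0.58 (adjusted p = 0.0045) and H20 against H15 -0.56 (adjusted p = 0.0138), while H15 against H9, at -0.33, did not pass (adjusted p = 0.0678, edgeR). The calls between H9, H15 and H20 depend on single libraries. H20 against H15 lost its call without the first H15 library (adjusted p = 0.0675) or the third H20 library (0.0545), and H15 against H9 gained one without the second H9 library (0.0265) or the first H15 library (0.0345, edgeR).

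**Figure D2:**
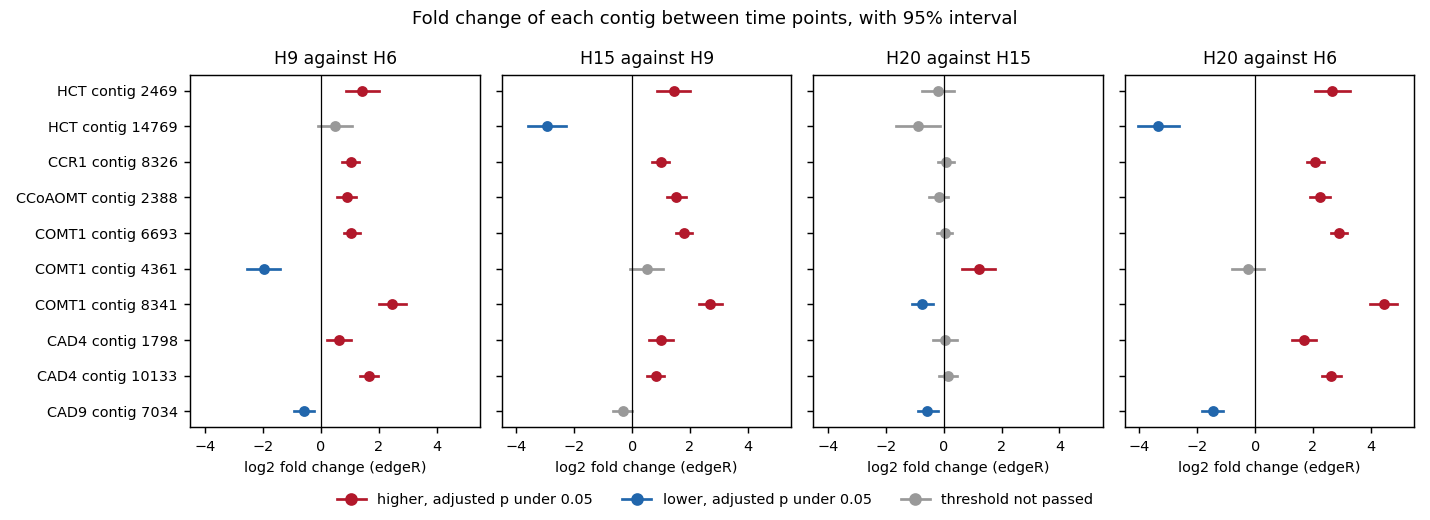
Log2 fold change (horizontal axis, edgeR) of the 10 contigs (rows) in 4 comparisons of time points. Points are estimates, lines 95% intervals, red and blue mark higher and lower at an adjusted p under 0.05, and grey marks contigs that did not pass. For H20 against H15, 7 of the 10 contigs are grey, and in the other panels the 7 rising contigs are all red.

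The shares of contigs with a shared name changed with time, and only COMT1 contigs 4361 and 6693 changed order. HCT contig 2469 held 99.6% ± 0.0952 (SD, n = 3 libraries) of the summed HCT RPKM in H20, against 79.2% ± 5.93 in H6. For COMT1, contig 4361 held 37.3% ± 1.55 in H20, against 84.3% ± 1.89 in H6, and contig 6693 held 60.9% ± 1.33 in H20, against 15.6% ± 1.86 in H6. Contig 6693 reached its largest share, 75.7%, in H15. Summed over its 3 contigs, COMT1 was lowest in H9, at 249 to 417 RPKM, and lay between 504 and 673 RPKM in H6, between 773 and 797 RPKM in H15 and between 966 and 1054 RPKM in H20. The summed level of the name was therefore lowest at a time when 2 of its 3 contigs had risen, and no test was run on the sum. If these contigs were fragments of 1 transcript, a sum of RPKM would count it more than once, and this was not tested.

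**Figure D3:**
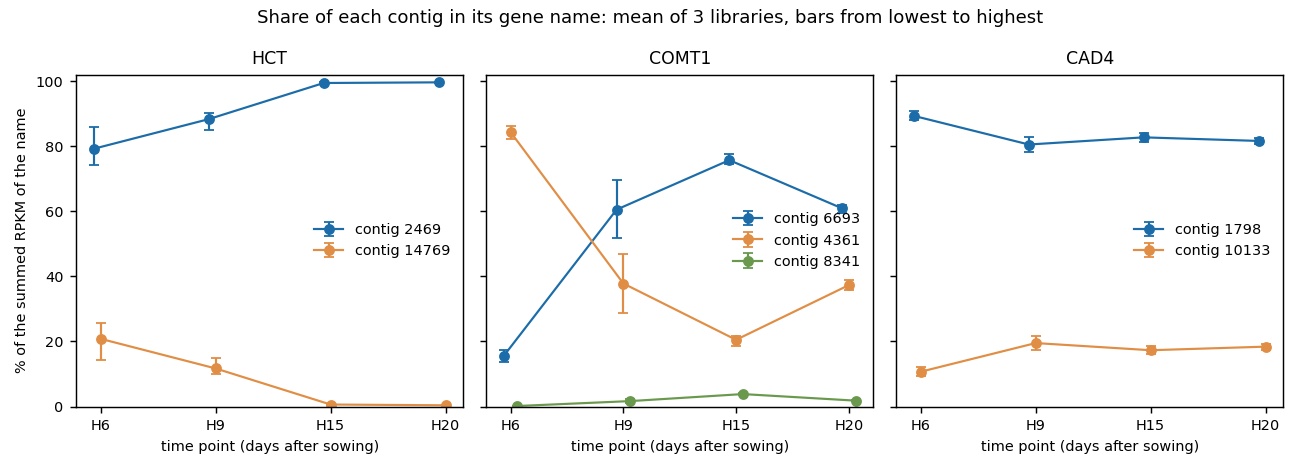
Share of each contig in the summed RPKM of its gene name (vertical axis, %) at H6, H9, H15 and H20 (horizontal axis) for HCT, COMT1 and CAD4. Points are means of 3 libraries and bars reach from the lowest to the highest library. The COMT1 contigs 4361 and 6693 cross between H6 and H9, while the CAD4 contigs keep their order in all time points.

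Ratios within a library are free of its scaling, and 10 contig pairs were compared among the 4 time points by an exact permutation test over the 12 libraries, adjusted over the 10 pairs. The smallest p this test can give is 6.49e-05. All 10 pairs varied in ratio, with adjusted p between 0.000649 and 0.0179. Their contigs, however, were all kept by the study for a change with age in this very dataset. They were also chosen here with earlier results known. Where 1 contig of a pair rose and the other fell, a shift in ratio was thus largely settled in advance. The p-values of this test, here and in the next paragraph, are therefore given as a description. The largest shift among contigs of 1 name was that of HCT, where the log2 ratio of contig 2469 to contig 14769 averaged 8.07 ± 0.35 in H20, against 1.97 ± 0.55 in H6 (SD, n = 3, adjusted p = 0.0013, exact permutation test). The log2 ratio of COMT1 contig 6693 to contig 4361 was 0.71 ± 0.09 in H20, against -2.44 ± 0.20 in H6 (n = 3, adjusted p = 0.0013, exact permutation test). In CAD4 the log2 ratio of contig 1798 to contig 10133 was 2.15 ± 0.09 in H20, against 3.07 ± 0.20 in H6 (n = 3, adjusted p = 0.00698, exact permutation test). The means of this ratio in H9, H15 and H20 lay within 2.06 to 2.26. CAD4 contig 1798 and CAD9 moved apart, with a mean log2 ratio of 5.68 in H20, against 2.47 in H6 (adjusted p = 0.000649, exact permutation test).

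The enzymes HCT, CCoAOMT, CCR1, COMT1 and CAD4 were compared in pairs along this order, although other reactions lie between some of them. Each was represented by its contig of highest mean RPKM, all of them contigs that rose. The H20 minus H6 differences in log2 ratio ran between -0.82 and 1.17. The log2 ratio of HCT contig 2469 to CCoAOMT averaged -2.11 in H20, against -2.61 in H6, and that of CCoAOMT to CCR1 3.42 in H20, against 3.25 in H6. The first difference of 0.51 became 0.26 without the third H6 library, and the second of 0.17 became 0.09 without the second H20 library. Relative to COMT1 contig 6693, CCR1 was lower at a log2 ratio of -2.41 in H20, against -1.59 in H6 (adjusted p = 0.00698, exact permutation test). COMT1 contig 6693 was below CAD4 contig 1798 in each H6 library (mean log2 ratio -0.87) and above it in each H20 library (0.30, adjusted p = 0.00173, exact permutation test).

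The order of levels at H20 was CCoAOMT, COMT1 contig 6693, CAD4 contig 1798, COMT1 contig 4361, HCT contig 2469, CCR1, CAD4 contig 10133, COMT1 contig 8341, CAD9 and HCT contig 14769. Only CCR1 and CAD4 contig 10133 overlapped between neighbours in that order, at 116 ± 3.73 and 112 ± 2.50 RPKM (SD, n = 3). At H6 the order was COMT1 contig 4361, CCoAOMT, CAD4 contig 1798, COMT1 contig 6693, HCT contig 2469, CCR1, CAD9, CAD4 contig 10133, HCT contig 14769 and COMT1 contig 8341. There, HCT contig 2469 overlapped with CCR1, CCR1 with CAD9 and CAD4 contig 10133 with HCT contig 14769. COMT1 contig 8341 was at place 3615 of the 3622 contigs in H6 and at place 1462 in H15.

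The third H6 library was the lowest of its time point for all 7 rising contigs, which summed to 476 RPKM there, 731 RPKM in the first and 701 RPKM in the second H6 library. It also had the lowest sums of the secondary wall cellulose synthases (137 RPKM, against 252 and 291 RPKM in the other H6 libraries), of the fiber markers (21.6 RPKM, against 49.2 and 89.6 RPKM), of the cambium markers (60.5 RPKM, against 85.5 and 74.1 RPKM) and of the phloem markers (158 RPKM, against 347 and 365 RPKM). Its sums of the photosynthetic contigs (12619 RPKM, against 8728 and 12092 RPKM) and of the vessel markers (72.3 RPKM, against 71.1 and 67.1 RPKM) were the highest of the H6 libraries. Without it, the H20 against H6 log2 fold changes of the 7 contigs were slightly smaller, for example 2.38 for HCT contig 2469 and 1.45 for CAD4 contig 1798, and all 7 remained higher. The part of this library's tissue makeup in these values was not tested.

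Markers of several tissues moved over the same days. The 3 fiber marker contigs, matched to the fasciclin-like arabinogalactan proteins FLA11 and FLA12, summed to between 21.6 and 89.6 RPKM in H6, between 380 and 549 RPKM in H9, between 2132 and 2540 RPKM in H15 and between 2048 and 3021 RPKM in H20. According to the study, FLA11 and FLA12 of Arabidopsis act in xylem vessels as well as in fibers, so these contigs do not mark fibers alone. All 3 fiber marker contigs were higher in H20 than in H6, as were the 3 of 6 cambium markers that had a contig, WOX4, PXY and LBD4. The 6 contigs matched to SEOR1, a sieve element protein and the only 1 of 6 phloem markers with a contig, were higher too. Of all contigs, 40.8% were higher and 52.8% lower in H20 than in H6. The 3 of 6 vessel markers that had a contig, BFN1, RNS3 and MC9, summed to 33.2 to 41.6 RPKM in H20, against 67.1 to 72.3 RPKM in H6, with 2 of the 3 lower. VND1 contig 11824, a vessel regulator counted below with the regulators, was higher, at 29.9 RPKM in H20 against 11.9 RPKM in H6 (log2 fold change 1.44, adjusted p = 9.31e-06, edgeR). The 7 photosynthetic contigs summed to 4525 to 4627 RPKM in H20, against 8728 to 12619 RPKM in H6, and all 7 were lower. No root hair marker was matched. The part of changing tissue proportions in the levels of the branch was not tested.

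Contigs with a gene symbol or Arabidopsis locus, members left out, were ranked by Pearson r of log2(RPKM + 1) over the 12 libraries. Contigs with neither were not ranked, so the most similar profiles are those within this annotated set. They are given as a description, since both profiles come from the same libraries. HCT contig 2469 was most like LAC4 contig 5768, a laccase of lignin polymerization (r = 0.996), ESK1, a xylan acetyltransferase (0.996), and LAC5 (0.992). CCoAOMT was most like PAL2, the entry enzyme phenylalanine ammonia-lyase, AT2G41770 and the rhomboid-like protein RBL2 (0.996 each). CCR1 was most like CESA4 contig 812, a secondary wall cellulose synthase (0.994), the methionine synthase MS1 contig 2444 (0.993) and AT5G42710 (0.993). CAD4 contig 1798 was most like LSH10 (0.992), the methylthioribose kinase MTK (0.988) and C3H (0.988). COMT1 contig 6693 was most like contigs matched to AT5G15740 (0.996), AT5G63180 (0.995) and AT5G67210 (0.995). CAD9 was most like AT3G05345, a DnaJ domain protein (0.969), AT5G26910 (0.966) and the transcription factor BZIP61 (0.965). The profile of COMT1 contig 4361, looked up after its values were seen, was closest to AT3G03270 (0.972), AT3G07090 (0.955) and AT2G20560, a heat shock protein of the DnaJ family (0.936).

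The enzymes before and beside the branch were described from lists of genes with known functions. An analysed contig was matched for 5 of 9 entry genes, 4 of 14 genes of other monolignol steps and 8 of 13 methyl donor genes. For laccases and peroxidases it was 7 of 17 genes, for soluble products 2 of 7, for regulators 7 of 19 and for the flavonoid branch 5 of 9. Genes outside the study's selection are absent, so the counts cover matched contigs only. All 6 entry enzyme contigs, for PAL, C4H and 4CL, were higher in H20 than in H6, as were 40.8% of all contigs. The median log2 fold change of the 6 was 2.66, beside -0.58 over all contigs. C4H contig 579, which hydroxylates cinnamate, had 696 ± 48.8 RPKM in H20, against 189 ± 14.4 RPKM in H6 (SD, n = 3). 4CL2 contig 2190, which makes the CoA ester used by HCT, had 694 ± 66.8 RPKM in H20, against 87.4 ± 35.9 RPKM in H6.

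Among 5 contigs of other monolignol steps, 3 were higher and 2 lower in H20 than in H6, beside 40.8% and 52.8% of all contigs. The higher ones were C3H contig 387, which hydroxylates the shikimate ester made by HCT (407 ± 19.9 RPKM in H20, against 101 ± 31.4 RPKM in H6), CSE contig 3449, the caffeoyl shikimate esterase (273 ± 32.9 RPKM in H20, against 98.6 ± 2.03 RPKM in H6) and HCALDH contig 19787, a hydroxycinnamaldehyde dehydrogenase (29.3 ± 4.86 RPKM in H20, against 3.13 ± 0.679 RPKM in H6). The lower ones were a CCR-related contig, 8620, with 5.28 ± 0.310 RPKM in H20, against 29.9 ± 9.87 RPKM in H6, and a second HCALDH contig, 9652. F5H, the hydroxylase that opens the syringyl branch, had no matched contig and was not analysed here.

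Methylation by CCoAOMT and COMT1 consumes S-adenosylmethionine and releases S-adenosylhomocysteine. All 9 matched contigs of the methyl donor cycle were higher in H20 than in H6 (40.8% of all contigs were), in H9 than in H6 (37.9%) and in H15 than in H9 (38.3%). SAHH2 contig 585, which removes S-adenosylhomocysteine, had 2215 ± 101 RPKM in H20, against 603 ± 53.5 RPKM in H6, and MAT4 contig 1452, a synthetase of S-adenosylmethionine, 1152 ± 135 RPKM in H20, against 57.6 ± 18.5 RPKM in H6 (SD, n = 3). Their median log2 fold change was 2.06 for H20 against H6, beside 2.16 for the 10 branch contigs.

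Downstream of the branch, 17 of 19 laccase and peroxidase contigs were higher in H20 than in H6, beside 40.8% of all contigs. The other 2 did not pass, and the median log2 fold change of the 19 was 2.57. The most abundant was PRX64 contig 2814, a peroxidase, with 552 ± 77.6 RPKM in H20, against 99.5 ± 18.4 RPKM in H6. Both contigs of soluble products were also higher, namely UGT72B1 contig 3956, a glucosyltransferase, and PRR1 contig 8082, a pinoresinol reductase of lignan synthesis. All 8 regulator contigs, matched to 7 of the 19 listed regulators, were higher. Among them were WLIM1 contig 4635, a LIM domain protein (417 ± 27.2 RPKM in H20, against 48.0 ± 10.8 RPKM in H6), SND2 contig 9953, a NAC factor of fiber walls, and KNAT7 contig 9937, a homeodomain regulator of secondary walls.

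The flavonoid branch, which draws on the same CoA ester as HCT, was represented by 8 contigs. In H20 against H6, 3 of them were higher and 5 lower, beside 40.8% and 52.8% of all contigs, with a median log2 fold change of -1.15 (-0.58 over all contigs). The higher ones were all matched to F3'H, a flavonoid hydroxylase, for example contig 1655 with 278 ± 11.7 RPKM in H20, against 96.7 ± 6.71 RPKM in H6. Another F3'H contig, 10622, was among the 5 lower ones, with 5.42 ± 0.359 RPKM in H20, against 20.8 ± 3.22 RPKM in H6. CHS contig 6536, chalcone synthase, which takes p-coumaroyl-CoA into flavonoids, had 24.2 ± 2.29 RPKM in H20, against 171 ± 43.4 RPKM in H6. HCT contig 2469 and CHS contig 6536 thus stood in opposite order at the 2 ends of the period. CHIL contig 10760, which assists chalcone synthesis, had 103 ± 28.2 RPKM in H6, 22.1 ± 3.16 RPKM in H9, 25.2 ± 2.67 RPKM in H15 and 69.2 ± 9.31 RPKM in H20, with its lowest values at the same stages as COMT1 contig 4361.

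**Figure D4:**
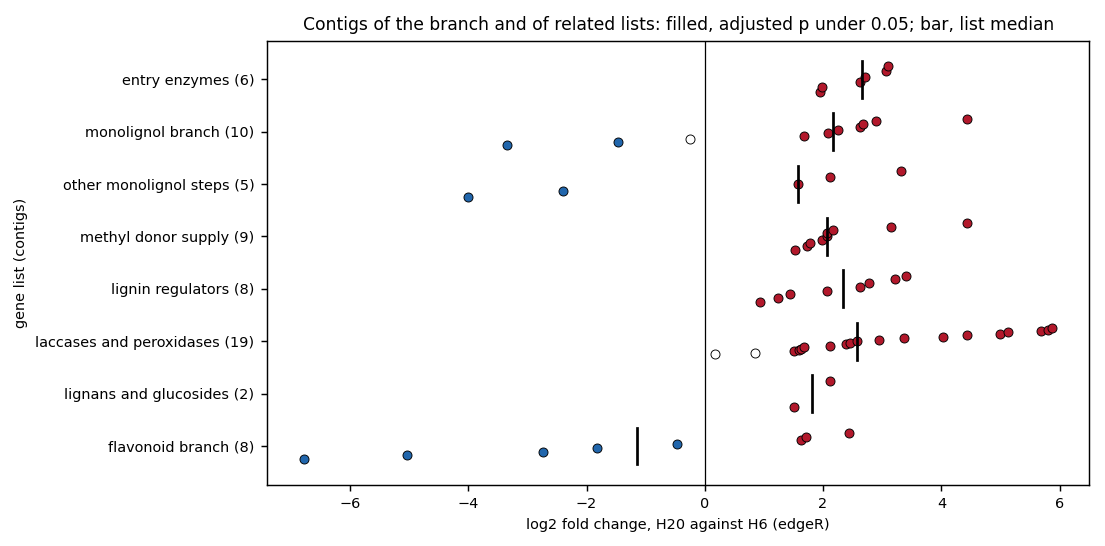
Log2 fold change for H20 against H6 (horizontal axis, edgeR) of each contig in the monolignol branch and 7 related lists (rows, with the number of contigs). Filled points passed an adjusted p of 0.05, open points did not, and bars are list medians. The branch has 7 points to the right and 2 filled points to the left, while all 9 methyl donor contigs lie to the right.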

How the data were processed

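RNA was sequenced from 12 pools of whole hypocotyls. After trimming and removal of duplicate reads, the authors built contigs de novo, mapped every library to these and annotated them by similarity to Arabidopsis proteins. The deposited counts are uniquely mapped reads per contig, and RPKM was calculated by the authors with the same workbench. The deposited contigs had passed the authors' 4-group ANOVA on these libraries, with limits on fold change and on RPKM difference. The p-value column deposited by the authors holds the FDR of that ANOVA and was not used, and the deposited averages were recomputed.

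The model for the counts was that of edgeR 4.0.16 under R 4.3.3 (quasi-likelihood, 1 fit for 12 libraries, mapped reads implied by counts and RPKM as library sizes, TMM factors of 0.926 to 1.06, 8 residual degrees of freedom), with Benjamini-Hochberg adjustment. filterByExpr removed 0 contigs. The biological coefficient of variation was 0.168. Ratios of contig pairs were tested by exact permutation over 15400 partitions in Python 3.11.15 with numpy 2.4.6, pandas 2.3.3 and scipy 1.17.1. Figures were drawn with matplotlib 3.10.9. The fits were tested on simulated data in which few contigs changed, and only in H20. That simulation does not test the scaling of data in which most contigs change.

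All members are named. From each related list at most 4 contigs are named, those of highest mean RPKM. HCALDH contig 9652, F3'H contig 10622 and VND1 contig 11824 are named in addition. For each gene and for COMT1 contig 4361, 3 similar contigs are named, by Pearson r among annotated contigs outside the members. Members and lists were chosen with earlier results of these data known. Alternatives were DESeq2 1.42.0, other scalings, limma 3.58.1 on log2 RPKM with pseudocounts of 1 and 0.1, no filter, a replicate block, 2-group fits and leaving out each library. The RT-qPCR measurements were not used here. P-values measure the spread between pools of 20 hypocotyls from a single batch.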

Additional observations from a re-analysis of the deposited data

How the results depend on the processing

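The 7 higher and 2 lower calls for H20 against H6 were made under every alternative run, and no member log2 fold change that passed the test and no pair ratio reversed its sign. COMT1 contig 4361, which did not pass in H20 against H6, gave 0.05 under DESeq2 in place of -0.25. DESeq2 left 1 contig lower in H9 than in H6 in place of 2, because CAD9 gave -0.35 (adjusted p = 0.0598), and called HCT contig 14769 higher there (0.71, adjusted p = 0.0182) and lower in H20 than in H15 (-0.83, adjusted p = 0.0379). For H15 against H9, mapped reads alone and limma on log2(RPKM + 1) and log2(RPKM + 0.1) called 2 contigs lower in place of 1, the second being CAD9, and the sum of the deposited counts as library size called COMT1 contig 4361 higher (0.66, adjusted p = 0.0333). With single libraries left out, 1 to 2 contigs were lower in H15 than in H9 and 1 to 3 lower in H20 than in H15. With a pseudocount of 1, the log2 ratio of COMT1 contig 6693 to contig 8341 differed between H20 and H6 by -0.55 in place of -1.53. The median of all contigs shifted with the scaling, by 0.29 for H20 against H6 under DESeq2 and by 0.23 with the sum of the deposited counts. TMM takes most contigs to be unchanged, which these selected contigs are not.

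Replicate numbers showed no clear pairing of the pools. The 18 same-numbered pairs of libraries correlated at -0.26 to 0.24 in their deviations from the group means. Of 12 libraries, 5 correlated best with their own number. Pairs of different number are not given beside these values, so the check cannot exclude a pairing. With the replicate number as a block, 8 contigs were higher in H15 than in H9 in place of 7, since COMT1 contig 4361 passed (0.57, adjusted p = 0.0498), and no other call changed. Precision is limited by 3 pools per time point and, for COMT1 contig 8341 in H6 and HCT contig 14769 in H20, by counts near 20 reads.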
